A study of Homo sapiens with 48 samples.

Results

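The 10 amino acid transporter genes followed here were measured in T47D-YA breast cancer cells: SLC7A5, SLC3A2, SLC7A11, SLC7A1, SLC1A4, SLC1A5, SLC38A1, SLC38A2, SLC43A1 and SLC6A9. Their members on the array were all probe sets that carry 1 of these symbols and no other, which gave 25 probe sets of 10 genes out of 19775 genes with such a probe set. T47D-YA is a variant of the luminal breast cancer line T47D that lacks IRS adaptor proteins and keeps the IGF receptor, and the study asked which genes IGF-I regulates through IRS-1 and which through IRS-2. Every group analysed here was a subline of these cells, either T47D-YA-IRS-1 clone #10 or #20 or T47D-YA-IRS-2 clone #1 or #6. After 24 h in serum-free medium (SFM), cells received IGF-I or, as the reference, no IGF-I, and the protocol's wording (SFM+FN) puts fibronectin (FN), a matrix protein, in the medium. RNA was taken at 4 h and at 24 h, which made 16 groups of 3 arrays and 48 arrays in all. Each subline is 1 clone with IRS-1 or IRS-2 put back, so a difference between clones and a difference between isoforms can be told apart only as far as 2 clones of each isoform allow. The reference arrays are named SFM arrays from here on. Nothing in the sources states that the replicates A, B and C were separate cultures, so p-values measure only the spread between these arrays, which may be technical.

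The values are log2 signals of Affymetrix HG-U133 Plus 2.0 probe sets, and a difference of 1 is a doubling. Array medians lay between 7.39 and 7.51, and arrays of 1 group correlated at 0.994 to 0.998 over all probe sets. Luminal markers were bright, with means of 14.2 for KRT8, 14.8 for KRT18, 13.9 for GATA3, 12.5 for PGR and 10.4 for ESR1. Of the markers of other cells, PTPRC averaged 6.38, KRT5 8.33, PECAM1 9.29 and COL1A1 10.0, and without detection calls these levels cannot be read as presence or absence. As in any bulk RNA sample, fewer cells of a kind and less RNA per cell cannot be told apart. A probe set was called when its Benjamini-Hochberg adjusted p from limma was under 0.05 and its change at least 1.5-fold, and 54613 probe sets were tested.

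Amino acid transporters of the plasma membrane set how much of each amino acid a cell can use for protein synthesis, redox balance and growth. SLC7A5 (LAT1) and SLC7A11 (xCT) are light chains that reach the membrane bound to the heavy chain SLC3A2 (CD98). IGF-I acts through its receptor, IRS adaptors and AKT on mTORC1, a kinase complex that amino acids also control. The transcription factor ATF4 is made under amino acid shortage and downstream of mTORC1, and with C/EBP partners it binds composite sites in genes of amino acid synthesis and uptake.

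The promoter stretches below are shown so that the members called at 24 h can be compared with the other members for 3 motifs. In RefSeq windows (GRCh38.p14) of 250 bases before to 50 after each start, 9 of 10 members had a window, and SLC7A11 is named only. The first 5 lines hold the composite core TGATGNAA, read on both strands, and the last 3 hold the E-box CACGTG. Lines read 5′ to 3′ along the gene's strand, with the match in capitals.
SLC7A1, chr13:29595663-29595692, minus strand: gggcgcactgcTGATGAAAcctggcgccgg
SLC3A2, chr11:62881719-62881748, plus strand: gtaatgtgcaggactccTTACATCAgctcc
SLC1A4, chr2:64989381-64989410, plus strand: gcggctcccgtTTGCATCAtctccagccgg
SLC1A5, chr19:46784893-46784922, minus strand: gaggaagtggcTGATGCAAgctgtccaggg
SLC38A1, chr12:46266502-46266531, minus strand: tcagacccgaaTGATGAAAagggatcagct
SLC7A5, chr16:87869620-87869649, minus strand: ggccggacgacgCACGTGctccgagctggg
SLC1A5, second start, chr19:46787326-46787355, minus strand: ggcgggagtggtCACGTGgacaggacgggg
SLC43A1, chr11:57515797-57515826, minus strand: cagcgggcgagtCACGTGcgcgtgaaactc

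In SLC3A2 and SLC1A4 the composite core stands on the strand opposite to the gene. Its first base lies after the annotated start in SLC7A1 and SLC3A2 and before it in SLC1A4, SLC1A5 and SLC38A1. TGATGNAA was found in 5 member genes and in 4.46% of all 27305 genes with a window, CACGTG in 3 members and 8.77% of genes, and the cyclic AMP response element TGACGTCA in 0 members and 2.25% of genes. Some genes have several windows. By window, TGATGNAA was in 5 of 16 member windows and 3.62% of all 35116, CACGTG in 3 and 7.26%, and TGACGTCA in 0 and 1.85%. The 3 motifs do not overlap in the lines shown. SLC7A1, SLC3A2 and SLC1A4 hold the composite core and were called in at least 1 IRS-1 clone at 24 h. SLC1A5 and SLC38A1 hold it and were not called, and SLC7A5, which was called, does not hold it. SLC38A2, SLC43A1 and SLC6A9 neither hold it nor were called. A link between the core and the response was not tested. A match describes letters in this window and is not evidence of binding.

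At 4 h IGF-I raised 2 of the 3 SLC7A11 probe sets in 3 of the 4 clones. At 24 h it raised SLC7A5, SLC7A1 and SLC7A11 in both IRS-1 clones, with SLC1A4 called in #10 and SLC3A2 in #20. The SLC7A1 calls were those of 212295_s_at alone among its 5 probe sets. Nothing was called at 24 h in either IRS-2 clone, and no member probe set was called lower in any clone. At 4 h, 0 of 25 member probe sets were called in IRS-1 #10, against a background of 0.0623% of all probe sets called in either direction. The count was 2 of 25 for IRS-1 #20 (background 0.11%), 2 for IRS-2 #1 (0.108%) and 2 for #6 (0.223%). At 24 h it was 6 of 25 in IRS-1 #10 and 6 in #20 (0.251% in each), and 0 in IRS-2 #1 (0.0476%) and #6 (0.0787%). In all, 5 of the 10 genes were called in at least 1 clone, and SLC1A5, SLC38A1, SLC38A2, SLC43A1 and SLC6A9 in none. Of all 19775 genes, 1.47% had a probe set called in at least 1 of the 8 comparisons.

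By adjusted p alone, without the fold threshold, the members that passed at 24 h were 14 higher and 4 lower in IRS-1 #10, against 8.01% of all probe sets, and 14 higher and 1 lower in #20, against 7.2%. In IRS-2, 6 were higher in #1 (background 3.15%) and 1 in #6 (3.84%). At 4 h the members that passed were 2 higher and 2 lower for IRS-1 #10 (1.81%), 3 and 3 for #20 (3.08%), 4 and 0 for IRS-2 #1 (1.62%), and 5 and 0 for #6 (2.35%). The median log2 change over the 25 probe sets at 24 h was 0.33 for IRS-1 #10, 0.39 for #20, 0.10 for IRS-2 #1 and 0.04 for #6. Over all probe sets tested, the median at 24 h was 0.01 for IRS-1 #10, 0.00 for #20, -0.01 for IRS-2 #1 and 0.01 for #6. The 4 h comparisons of a clone share no arrays with its 24 h comparisons.

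**Figure D1:**
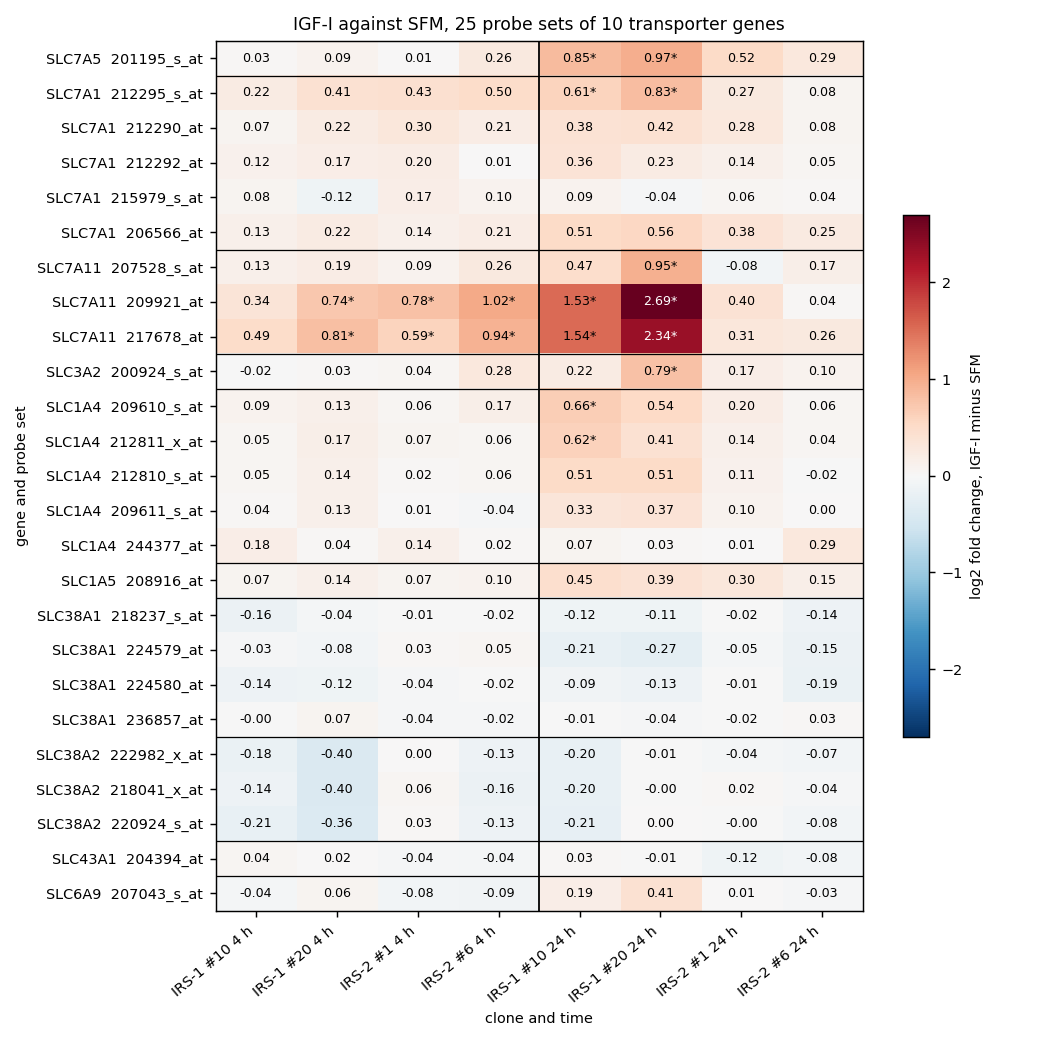
Log2 fold change of IGF-I over SFM for each member probe set (rows, grouped by gene) in each clone at 4 h and at 24 h (columns, divided by the vertical line). Asterisks mark calls at an adjusted p under 0.05 and at least 1.5-fold. The darkest cells are SLC7A11 in IRS-1 #20 at 24 h, at 2.69 and 2.34, and all calls at 24 h stand in the 2 IRS-1 columns.

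SLC7A5 carries leucine and other large neutral amino acids into the cell in exchange for glutamine. At 24 h its log2 signal was 12.02, 12.03 and 12.00 in IGF-I arrays of IRS-1 #10, against 11.12, 11.17 and 11.22 in SFM arrays. In IRS-1 #20 it was 12.97, 13.03 and 13.03 with IGF-I, against 11.95, 11.98 and 12.16 in SFM. The groups did not overlap in either clone, and the log2 fold changes were 0.85 ± 0.05 in #10 and 0.97 ± 0.05 in #20 (SE, n = 3 arrays a group), with adjusted p of 2.69e-17 and 3.81e-20. In the IRS-2 clones at 24 h the groups also stood apart. IRS-2 #1 had 11.77, 11.85 and 11.80 with IGF-I, against 11.28, 11.30 and 11.27 in SFM. IRS-2 #6 had 12.12, 12.18 and 12.14 with IGF-I, against 11.82, 11.88 and 11.86 in SFM. The changes there, 0.52 in #1 and 0.29 in #6, passed the adjusted p (1.15e-09 and 0.000119) but not the fold threshold. At 4 h the change was 0.03 for IRS-1 #10, 0.09 for #20, 0.01 for IRS-2 #1 and 0.26 for #6, and only that of IRS-2 #6 passed the adjusted p (0.000537).

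SLC3A2, the heavy chain that SLC7A5 and SLC7A11 share, was called only in IRS-1 #20 at 24 h. There the IGF-I arrays had 11.46, 11.45 and 11.47, against 10.61, 10.68 and 10.70 in SFM, without overlap and with a log2 fold change of 0.79 ± 0.05 (adjusted p 1.62e-16). In IRS-1 #10 at 24 h the IGF-I arrays had 11.08, 11.00 and 11.03, against 10.72, 10.88 and 10.85 in SFM. These groups were apart too, by 0.22, which passed the adjusted p (0.0032) and is smaller than the change in #20. In each IRS-1 clone at 24 h, 12% of all probe sets had IGF-I arrays above all SFM arrays. In the IRS-2 clones at 24 h the IGF-I arrays also lay above all SFM arrays, by 0.17 in #1 and 0.10 in #6. Neither change was called, and 12.3% of all probe sets in #1 and 9.06% in #6 lay above in this way. At 4 h the change was 0.28 in IRS-2 #6 (adjusted p 0.000356) and between -0.02 and 0.04 in the other clones.

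SLC7A11 imports cystine in exchange for glutamate and so feeds glutathione synthesis, and it had the largest changes of the 10 genes. At 24 h its probe set 209921_at read 8.46, 8.44 and 8.32 in IGF-I arrays of IRS-1 #10, against 7.03, 6.77 and 6.83 in SFM. In IRS-1 #20 it read 8.83, 9.04 and 9.18 with IGF-I, against 6.34, 6.18 and 6.47 in SFM. The log2 fold changes were 1.53 ± 0.10 in #10 (2.89-fold, adjusted p 1.45e-15) and 2.69 ± 0.10 in #20 (6.44-fold, adjusted p 1.34e-25), and no IGF-I array reached down to an SFM array. A second probe set, 217678_at, read 7.95, 7.99 and 8.05 with IGF-I in #10, against 6.50, 6.51 and 6.36 in SFM. In #20 it read 8.64, 8.52 and 8.70 with IGF-I, against 6.38, 6.37 and 6.09 in SFM. Its log2 fold changes were 1.54 in #10 and 2.34 in #20. The third probe set, 207528_s_at, was called in #20 (0.95) and not in #10 (0.47).

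At 4 h SLC7A11 was called in both IRS-2 clones and in IRS-1 #20, by 209921_at and 217678_at. None of these 4 h calls held with the methods' t-test after Benjamini-Hochberg adjustment. The mean over its 3 probe sets was called in IRS-2 #6 (0.74) but not in IRS-1 #20 (0.58) or IRS-2 #1 (0.49), where it passed the adjusted p only. In IRS-2 #1, 209921_at read 7.87, 7.84 and 7.75 with IGF-I, against 6.88, 7.20 and 7.03 in SFM. In IRS-2 #6 it read 8.49, 8.13 and 8.16 with IGF-I, against 7.17, 7.28 and 7.29 in SFM. These groups did not overlap, with log2 fold changes of 0.78 ± 0.10 in #1 and 1.02 ± 0.10 in #6 (adjusted p 6.38e-07 and 3.87e-10). In IRS-1 #20 the same probe set read 7.23, 7.21 and 7.31 with IGF-I, against 6.35, 6.46 and 6.73 in SFM, a change of 0.74 (adjusted p 2.47e-06). In IRS-1 #10 it read 7.47, 7.50 and 7.30, against 7.03, 7.03 and 7.19 in SFM, a difference of 0.34 that did not pass (adjusted p 0.0701). At 24 h the probe set was not called in either IRS-2 clone. In IRS-2 #1 the groups still stood apart, by 0.40, which passed the adjusted p (0.0164). IRS-2 #6 read 6.86, 6.93 and 7.09 with IGF-I, against 7.09, 6.87 and 6.81 in SFM at 24 h, and these groups overlapped. With 217678_at the 24 h groups did not overlap in either IRS-2 clone. The changes of 0.31 in #1 and 0.26 in #6 did not pass (adjusted p 0.104 and 0.174). Of all probe sets, 12.3% in #1 and 9.06% in #6 had IGF-I arrays above all SFM arrays at 24 h.

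The called 4 h changes of 217678_at were 0.81 for clone #20 (IRS-1), 0.59 for clone #1 and 0.94 for clone #6 (both IRS-2). The third probe set, 207528_s_at, changed at 4 h by between 0.09 and 0.26 in the 4 clones and passed in none. In IRS-2 #1 probe set 217678_at read 7.04, 7.29 and 7.18 with IGF-I, against 6.39, 6.74 and 6.60 in SFM. In IRS-2 #6 it read 8.06, 7.65 and 7.83 with IGF-I, against 6.88, 7.02 and 6.83 in SFM. The groups stood apart in both, and in #1 the change lay at the threshold, since it was 0.56 and not called without replicate A. In IRS-1 #10 the 217678_at change of 0.49 passed the adjusted p (0.00453) but not the fold threshold, and it was 0.59 and called without replicate C.

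SLC7A1 (CAT-1) carries arginine and lysine. Its probe set 212295_s_at read 10.63, 10.67 and 10.63 in IGF-I arrays of IRS-1 #10 at 24 h, against 10.02, 10.09 and 10.00 in SFM. In IRS-1 #20 it read 10.49, 10.56 and 10.58 with IGF-I, against 9.68, 9.67 and 9.80 in SFM. Neither clone's groups overlapped, and the log2 fold changes were 0.61 ± 0.06 in #10 and 0.83 ± 0.06 in #20 (adjusted p 5.80e-11 and 2.70e-15). The same probe set passed the adjusted p, under the fold threshold, in all 4 clones at 4 h. Those changes were 0.22 for IRS-1 #10, 0.41 for #20, 0.43 for IRS-2 #1 and 0.50 for #6, and without replicate B that of IRS-2 #6 was 0.60 and called. At 24 h it was 0.27 for IRS-2 #1 and 0.08 for #6. No other SLC7A1 probe set was called in a comparison of IGF-I with SFM. With the mean over all 5 probe sets of the gene the 24 h changes were 0.39 in #10 and 0.40 in #20, and neither was called.

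SLC1A4 (ASCT1) exchanges alanine, serine and cysteine, and SLC1A5 (ASCT2) is a glutamine carrier of the same family. At 24 h SLC1A4 probe set 209610_s_at read 10.04, 10.01 and 10.06 with IGF-I in IRS-1 #10, against 9.31, 9.38 and 9.44 in SFM, a called change of 0.66 ± 0.06 (adjusted p 4.45e-11). In IRS-1 #20 it read 10.48, 10.67 and 10.52, against 9.89, 10.03 and 10.13 in SFM, a change of 0.54 that passed the adjusted p (8.29e-09) and stayed under the fold threshold. The groups did not overlap in either clone, and without replicate C the change in #20 was 0.62 and called. A second probe set, 212811_x_at, was called in #10 at 0.62, while the mean over all SLC1A4 probe sets was 0.44 in #10 and not called. SLC1A5 read 10.99, 10.80 and 10.85 with IGF-I in IRS-1 #10 at 24 h, against 10.29, 10.51 and 10.48 in SFM. The changes of SLC1A5 at 24 h were 0.45 for IRS-1 #10, 0.39 for #20 and 0.30 for IRS-2 #1, which passed the adjusted p only, and 0.15 for #6, which did not.

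**Figure D2:**
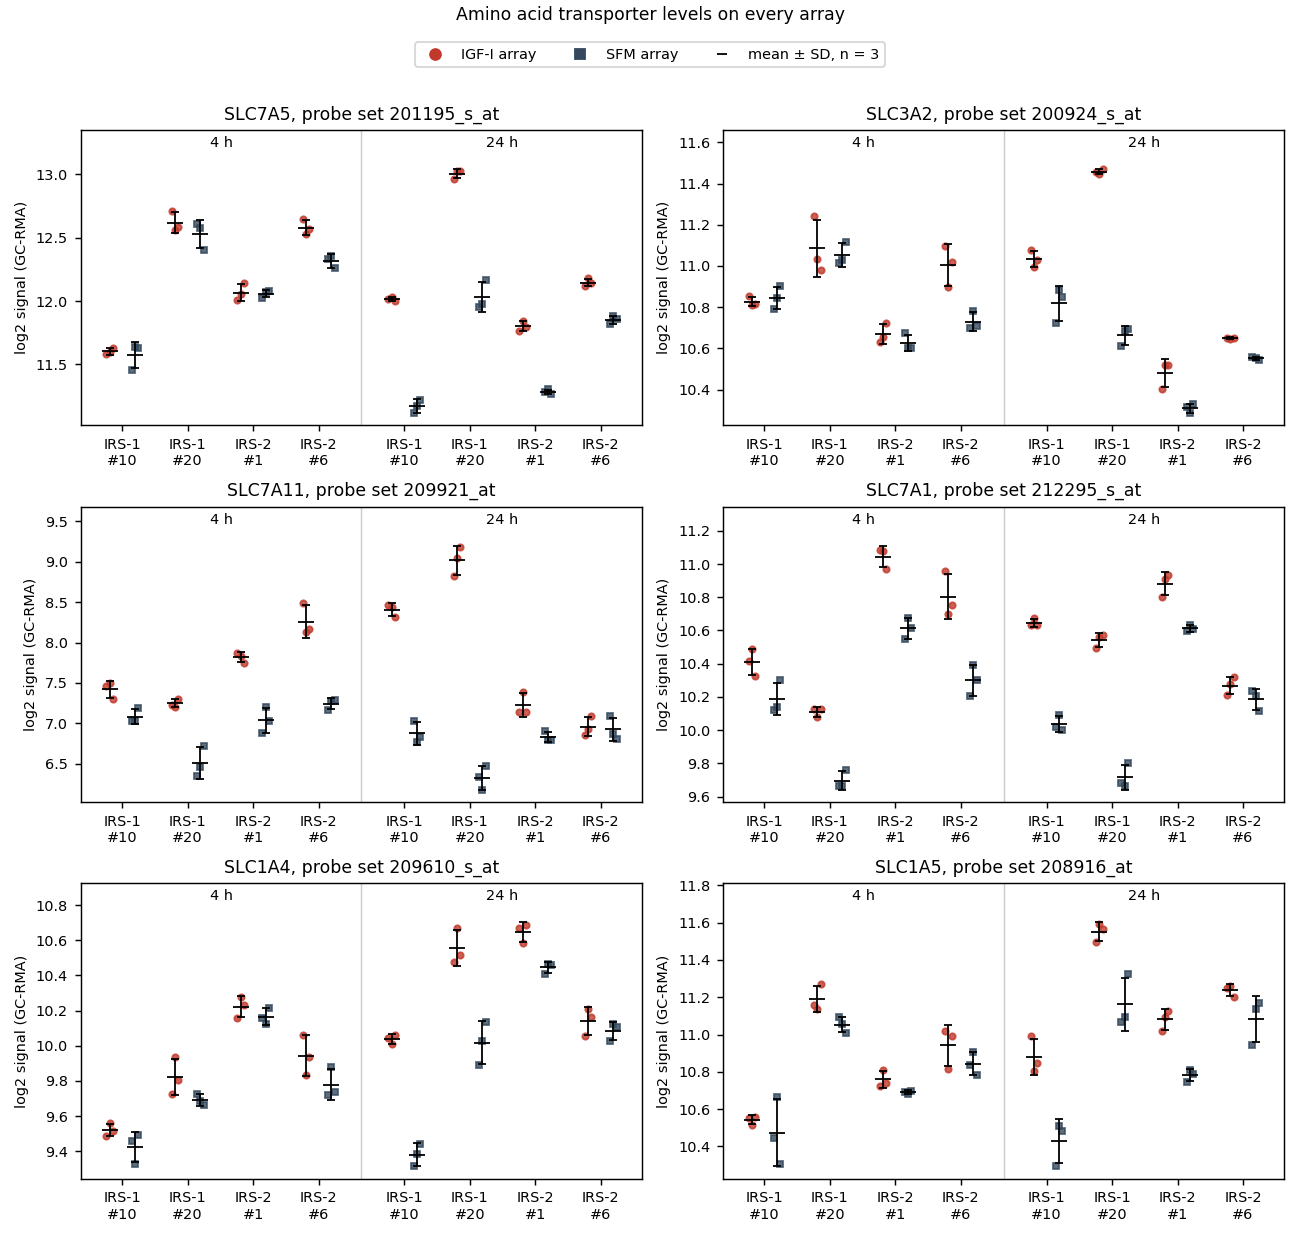
Log2 signal of 6 member probe sets on each array (1 point per array), with IGF-I arrays left of SFM arrays in each clone, 4 h on the left and 24 h on the right of each panel, and bars for the mean ± SD (n = 3). Each panel has its own vertical scale. SLC7A5 in SFM stands lower at 24 h than at 4 h in all 4 clones, and SLC7A11 with IGF-I is highest in IRS-1 #20 at 24 h.

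SLC38A1 (SNAT1) and SLC38A2 (SNAT2) bring in glutamine and other neutral amino acids together with sodium, and SLC38A2 is itself raised by amino acid shortage. SLC38A2 probe set 218041_x_at read 12.13, 12.13 and 12.07 in IGF-I arrays of IRS-1 #20 at 4 h, against 12.52, 12.47 and 12.53 in SFM. The IGF-I arrays were all lower, as for 7.72% of all probe sets there. The log2 fold change was -0.40 ± 0.05 (adjusted p 3.41e-07), and the 2 other SLC38A2 probe sets gave -0.40 and -0.36. In IRS-1 #20 at 24 h the 3 probe sets were between -0.01 and 0.00. In IRS-1 #10 they were between -0.21 and -0.14 at 4 h and between -0.21 and -0.20 at 24 h. The mean over the 3 probe sets in IRS-1 #10 was -0.18 at 4 h and -0.20 at 24 h. Both passed the adjusted p (0.0124 and 0.00077, limma), under the fold threshold. In IRS-2 #6 at 4 h the IGF-I arrays also lay below all SFM arrays with the 3 SLC38A2 probe sets. The differences of -0.13, -0.16 and -0.13 did not pass (adjusted p 0.0867 to 0.124), and 7.18% of all probe sets lay below in this way. No SLC38A2 probe set reached the fold threshold in any clone. The largest SLC38A1 difference was that of 224579_at in IRS-1 #20 at 24 h, with 11.94, 12.08 and 12.10 in IGF-I arrays and 12.30, 12.31 and 12.33 in SFM arrays, which is -0.27 (adjusted p 0.000488). In IRS-2 #6 at 24 h 3 of the 4 SLC38A1 probe sets had IGF-I arrays below all SFM arrays, as had 12.5% of all probe sets. These SLC38A1 differences, between -0.19 and -0.14, did not pass.

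SLC43A1 (LAT3), a carrier of branched-chain amino acids, and SLC6A9 (GlyT1), a glycine transporter, were not called in any comparison. For SLC43A1 the largest difference was in IRS-2 #1 at 24 h, with 7.51, 7.39 and 7.41 in IGF-I arrays and 7.51, 7.63 and 7.52 in SFM arrays. That is -0.12 with a single IGF-I array inside the SFM range, and it did not pass (adjusted p 0.529). SLC6A9 read 8.11, 8.23 and 8.11 with IGF-I in IRS-1 #20 at 24 h, against 7.65, 7.71 and 7.88 in SFM, a difference of 0.41 that passed the adjusted p (0.00099). In IRS-1 #10 it was 0.19 and did not pass (adjusted p 0.204).

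The response to IGF-I was then compared between isoforms, as the mean of the 2 IRS-1 clones minus that of the 2 IRS-2 clones. At 24 h the 3 SLC7A11 probe sets were called, with differences of 1.89 (209921_at, 95% interval 1.69 to 2.10), 1.65 (217678_at) and 0.67 (207528_s_at), against 0.0586% of all probe sets called. SLC7A1 (0.54 for 212295_s_at), SLC7A5 (0.51), SLC1A4 (0.47 for 209610_s_at) and SLC3A2 (0.37) passed the adjusted p, as 0.476% of all probe sets did, and stayed under the fold threshold. For SLC1A5 the difference was 0.20 with an interval of 0.06 to 0.33, and it did not pass (adjusted p 0.294). At 4 h no member was called (background 0.0293%), and the 3 SLC38A2 probe sets passed the adjusted p alone (0.26% of all probe sets) with differences of -0.23, -0.22 and -0.23. The error of these differences holds the spread between arrays and not the spread between clones.

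Within IRS-1, the SLC7A11 response at 24 h was smaller in #10 than in #20, with a difference of -1.16 ± 0.14 for 209921_at and -0.80 ± 0.15 for 217678_at (adjusted p 8.06e-07 and 0.0013, background 0.134%). The second of these was -0.74 and no longer called without replicate C. SLC3A2 differed by -0.58 (adjusted p 9.67e-07), just under the fold threshold, and was -0.62 and called without replicate A. For SLC7A5 the difference between #10 and #20 was -0.13 with a 95% interval of -0.27 to 0.01, and for SLC7A1 212295_s_at it was -0.22 with an interval of -0.38 to -0.05. By adjusted p alone 4 of 25 members passed at 24 h, against 1.05% of all probe sets. At 4 h no member response differed between #10 and #20 by the call (background 0.0256%) or by adjusted p alone (0.0366%). Between IRS-2 #1 and #6 no member was called at 4 h (background 0.00183%) or at 24 h (background 0.0%).

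The response at 24 h minus that at 4 h, over both clones of an isoform, was called higher in IRS-1 for SLC7A5 (0.85 ± 0.05) and for SLC7A11 209921_at (1.57 ± 0.10) and 217678_at (1.29 ± 0.10), against a background of 0.203%. In IRS-2 it was called lower for SLC7A11 209921_at (-0.68 ± 0.10, adjusted p 6.97e-06, background 0.146%), and that value was -0.45 and not called without replicate A. SLC7A11 probe set 209921_at thus had a larger response at 24 h than at 4 h in IRS-1 cells and a smaller one in IRS-2 cells. Between times in IRS-2, 217678_at and 207528_s_at were not called, nor was 207528_s_at in IRS-1. In IRS-2 the SLC7A5 response differed between times by 0.27 (adjusted p 0.00035), under the fold threshold. By adjusted p alone 17 of 25 members passed in IRS-1, against 5.99% of all probe sets, and 4 in IRS-2, against 2.78%.

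The SLC7A5 response at 24 h held a lower SFM level as well as the level with IGF-I. In SFM the signal at 24 h minus that at 4 h was -0.40 for IRS-1 #10, -0.50 for #20, -0.77 for IRS-2 #1 and -0.46 for #6. All 4 passed the adjusted p, and that of IRS-2 #1 was called (adjusted p 4.43e-16), as was that of IRS-1 #20, at -0.63, without replicate C. With IGF-I the mean at 24 h stood above that at 4 h in IRS-1 (0.41 in #10 and 0.39 in #20) and below it in IRS-2 (-0.27 in #1 and -0.43 in #6). These IGF-I differences are given without a test. In SFM over time, the members past the adjusted p alone were 2 of 25 for IRS-1 #10 (1.83% of all probe sets), 9 for #20 (20.8%), 7 for IRS-2 #1 (5.33%) and 11 for #6 (12.8%). No other member was called over time in SFM, where the background was 0.022% for IRS-1 #10, 0.699% for #20, 0.229% for IRS-2 #1 and 0.482% for #6. For SLC7A11 209921_at in SFM the 24 h minus 4 h difference was -0.21 for IRS-1 #10, -0.18 for #20, -0.21 for IRS-2 #1 and -0.32 for #6, while with IGF-I it was 0.99 in #10, 1.77 in #20, -0.59 in #1 and -1.30 in #6.

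**Figure D3:**
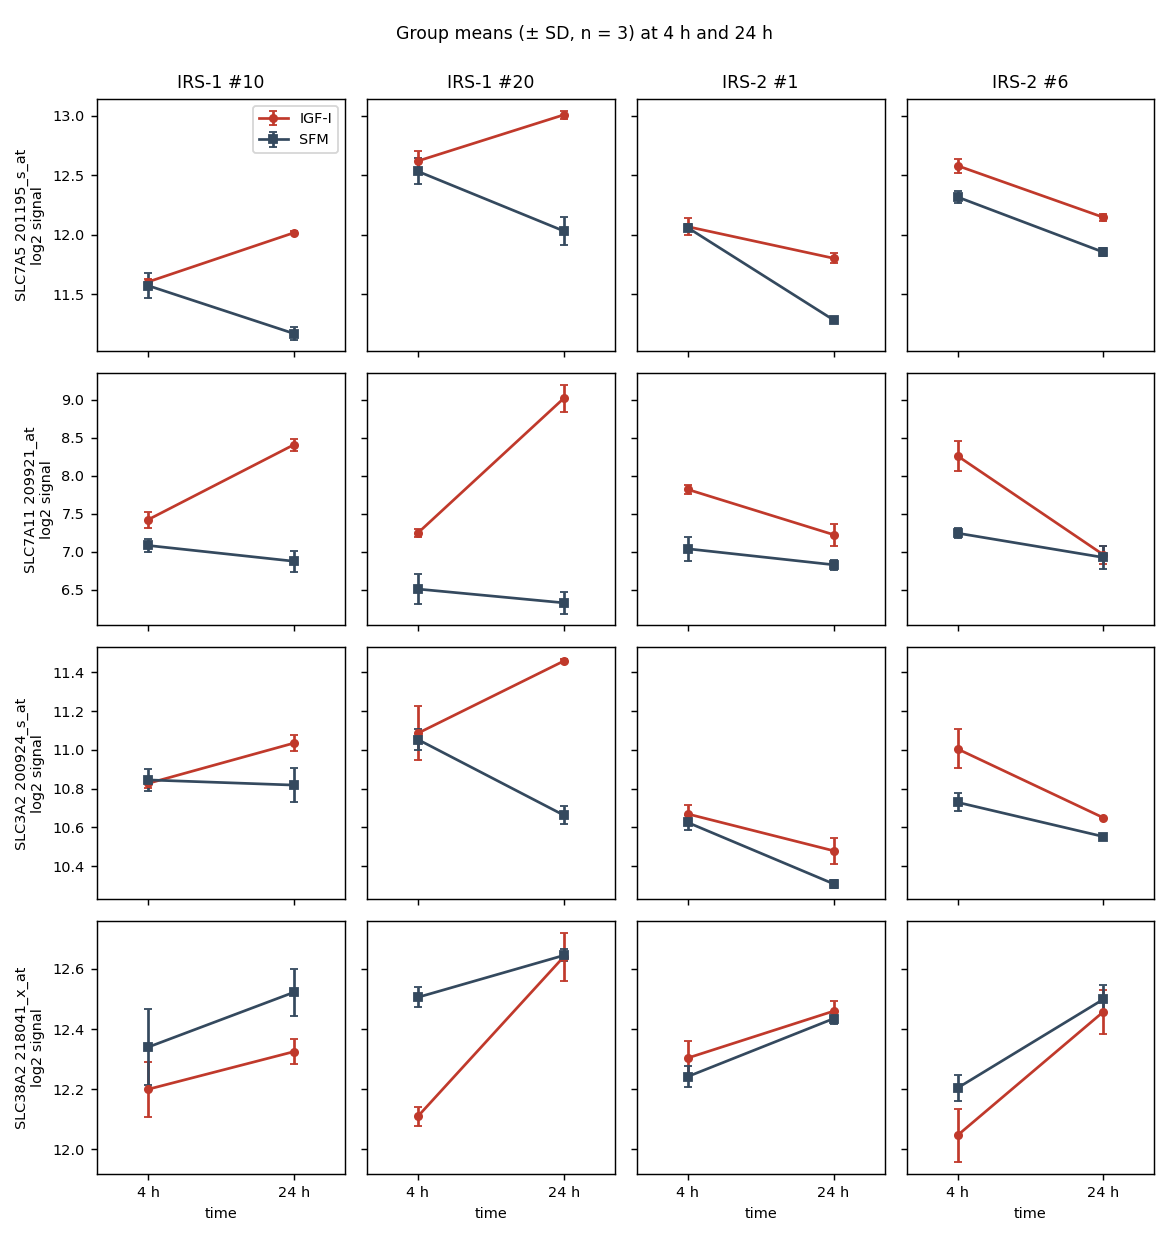
Group means (± SD, n = 3 arrays) of the log2 signal at 4 h and at 24 h for SLC7A5, SLC7A11, SLC3A2 and SLC38A2 (rows) in each clone (columns), with IGF-I as circles and SFM as squares. In IRS-1 the SLC7A5 lines move apart, at 12.02 with IGF-I and 11.17 in SFM in #10 at 24 h, while in IRS-2 both lines run down.

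Without IGF-I, some member levels also differed between the 2 clones of IRS-1. Averaged over SFM arrays of both times, SLC7A5 was 11.37 ± 0.23 for IRS-1 #10, 12.28 ± 0.29 for #20, 11.67 ± 0.42 for IRS-2 #1 and 12.09 ± 0.26 for #6 (SD, n = 6 arrays each). From low to high the order was IRS-1 #10, IRS-2 #1, IRS-2 #6 and IRS-1 #20, and the ranges of neighbours in it overlapped. In a fit that kept the times apart, SLC7A5 in #10 minus that in #20 was -0.91 ± 0.04 (adjusted p 1.87e-26). SLC1A5 was also lower in IRS-1 #10, with 10.45 ± 0.14, than in #20, with 11.11 ± 0.11, a called difference of -0.66. These were the 2 member probe sets called between the IRS-1 clones, against 3.37% of all probe sets, and none was called between the IRS-2 clones, against 1.07%. By adjusted p alone 17 of 25 passed between the IRS-1 clones, against 31.8% of all probe sets, and 8 between the IRS-2 clones, against 19.3%.

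Between isoforms, 1 member probe set was called at baseline, SLC1A4 212810_s_at, against 6.37% of all probe sets. It averaged 8.38 ± 0.12 for IRS-1 #10 and 8.65 ± 0.21 for #20, against 9.32 ± 0.08 for IRS-2 #1 and 8.96 ± 0.10 for #6. The difference of IRS-1 from IRS-2 was -0.63 ± 0.04 (adjusted p 6.64e-19), and it was -0.57 and not called after quantile normalization. SLC1A4 209610_s_at differed by -0.49 and SLC7A1 212295_s_at by -0.52, both under the fold threshold, and by adjusted p alone 20 of 25 members passed, against 62.6% of all probe sets. For SLC7A1 the SFM means were 10.11 for IRS-1 #10, 9.71 for #20, 10.61 for IRS-2 #1 and 10.24 for #6. The SLC7A11 209921_at mean was 6.98 in IRS-1 #10 and 6.42 in IRS-1 #20, a difference of 0.56 under the fold threshold. SLC43A1 was the flattest of the members described here, between 7.56 and 7.65 in the 4 clones.

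For 5 of the genes there were several probe sets, and their IGF-I responses were compared within arrays, each against the probe set of the same gene with the highest mean. Of 15 such differences, those that passed the adjusted p at 24 h were 4 for IRS-1 #10 (2.7% of 21316 differences over all genes), 6 for #20 (5.27%), 0 for IRS-2 #1 (0.183%) and 0 for #6 (1.2%). At 4 h they were 0 for IRS-1 #10 (0.389%), 2 for #20 (0.624%), 2 for IRS-2 #1 (0.427%) and 4 for #6 (0.633%). For SLC7A11 in IRS-1 #20 at 24 h, 209921_at responded by 1.73 ± 0.14 more than 207528_s_at and 217678_at by 1.38 ± 0.11 more. The SLC7A11 probe sets thus had the same direction there and different sizes.

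For SLC7A1 in IRS-1 #20 at 24 h, 212290_at, 212292_at and 215979_s_at responded less than 212295_s_at. The differences were -0.41 for 212290_at, -0.60 for 212292_at and -0.86 for 215979_s_at. The response of 215979_s_at itself was -0.04. For SLC1A4 in IRS-1 #10 at 24 h, 244377_at differed from 209610_s_at by -0.59 (adjusted p 0.00249), with a response of 0.07. Over all 48 arrays, 244377_at correlated with 209610_s_at at -0.21, 215979_s_at with 212295_s_at at 0.12 and SLC38A1 236857_at with 218237_s_at at -0.37, while the other 12 pairs correlated at 0.70 to 0.98. These correlations describe arrays that share clones and treatments. Probe sets whose names end in _s_at or _x_at can take up signal from related transcripts, and their share in the signal was not tested.

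**Figure D4:**
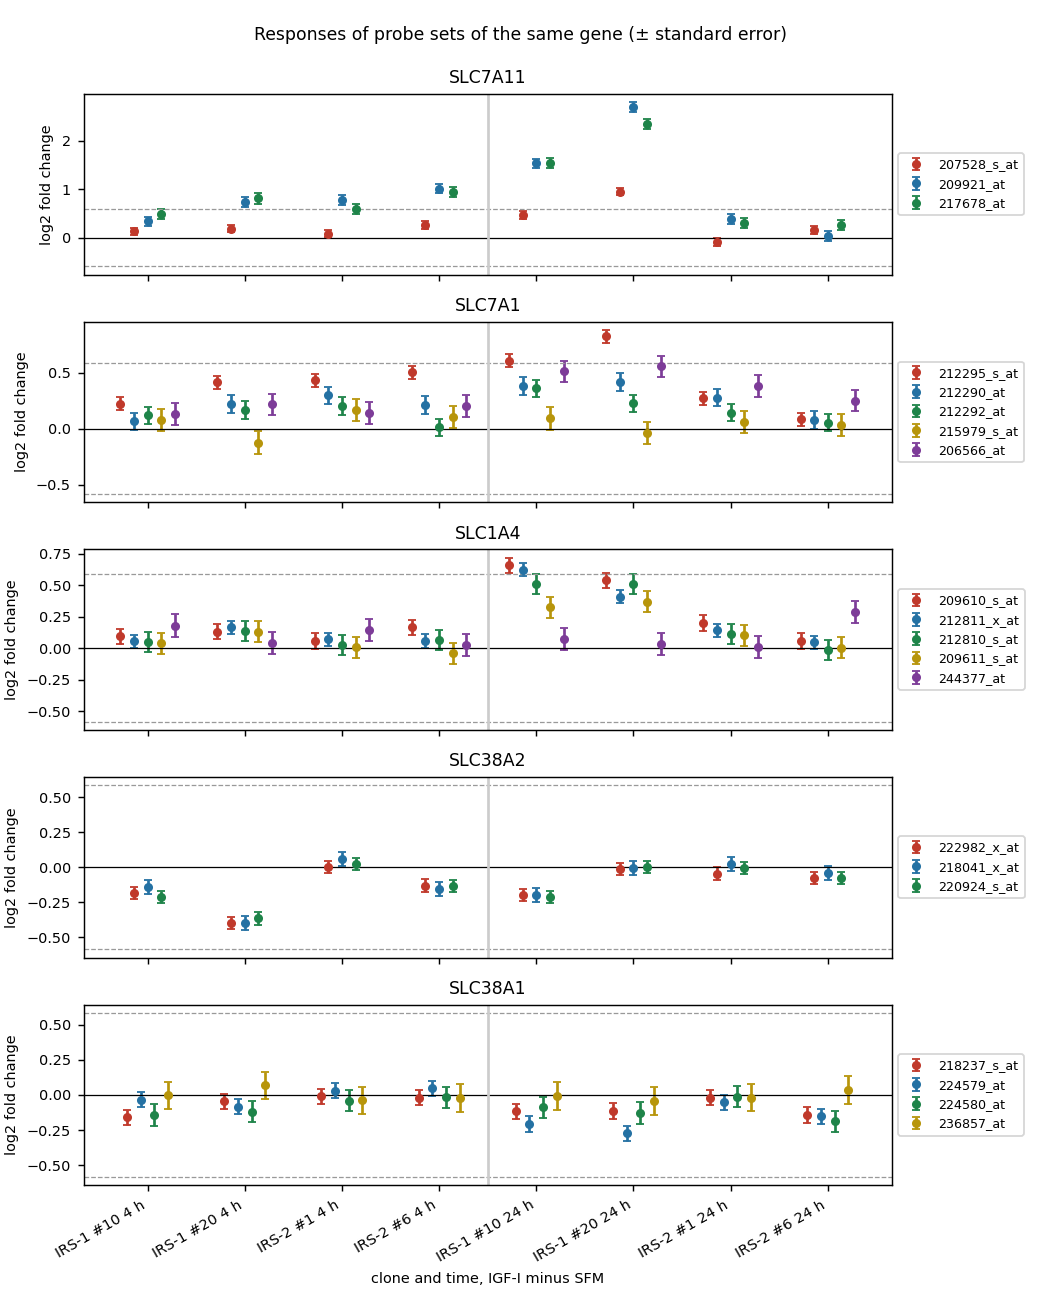
Log2 fold change of IGF-I over SFM (± SE) for each probe set of the 5 genes with several, in each clone at 4 h (left of the grey line) and 24 h (right). Dashed lines mark the 1.5-fold threshold. The SLC7A11 probe sets spread between 0.95 and 2.69 in IRS-1 #20 at 24 h, and the 3 SLC38A2 probe sets lie together.

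Across the 8 comparisons of IGF-I with SFM, the members whose changes ran most alike were SLC7A5 and SLC1A5 (Pearson r 0.96), SLC1A4 and SLC1A5 (0.92) and SLC7A5 and SLC1A4 (0.91). SLC7A11 and SLC6A9 (0.88) and SLC7A11 and SLC3A2 (0.87) followed. Each gene was taken by its probe set of highest mean, which for SLC7A11 is 207528_s_at. SLC7A5 with SLC3A2 gave 0.81 and SLC7A5 with SLC38A1 -0.25. Among 179 other genes, those most like SLC7A5 were SKA1 (0.98), FAS (0.97), PDK4 (0.96), ZNF165 (0.96) and AURKB (0.94). These 179 are genes whose highest-mean probe set was called in at least 1 of these comparisons, with a mean log2 of at least 5. SKA1 encodes a kinetochore protein, FAS a death receptor, PDK4 a kinase that inhibits pyruvate dehydrogenase and AURKB a mitotic kinase. PDK4 has the pattern of SLC7A5 at another level, with log2 fold changes between -0.65 and -0.50 at 4 h. These correlations run over 8 values from 4 clones and carry no test.

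A pair of further lists was set beside the members. Of 41 other amino acid transporter genes, 38 were measured and 0 were called in any of the 8 comparisons, with median log2 changes between -0.05 and 0.01. Of 30 genes of the amino acid response, among them ATF4 and its known targets, 17 were called higher in IRS-1 #20 at 24 h and 4 in IRS-1 #10 at 24 h. In IRS-2 #6 at 4 h 2 were called higher, and in the other 5 comparisons 0 were. None was called lower. The background in each clone is that given for the members, and the median log2 change of this list at 24 h was 0.29 for IRS-1 #10, 0.61 for #20, 0.06 for IRS-2 #1 and 0.02 for #6.

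The largest changes of the response list in IRS-1 #20 at 24 h were those of INHBE (3.39), GDF15 (2.46) and ASNS (1.83), the last of which makes asparagine. In IRS-1 #10 at 24 h they were ASNS (0.96), PSAT1 (0.95), an enzyme of serine synthesis, and INHBE (0.67). In IRS-2 #6 at 4 h the 2 called were ATF3 (0.69) and GDF15 (0.63). ATF4 itself was called in IRS-1 #20 at 24 h (0.78) and not in IRS-1 #10 (0.27). INHBE and GDF15 encode secreted proteins of the TGF-beta family.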

How the data were processed

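The 48 total RNA samples were each run on 1 Affymetrix HG-U133 Plus 2.0 array. The authors summarized probe sets by GC-RMA in GeneData Refiner (version not given in the sources used here), and the deposited values are on a log2 scale, from 3.13 to 15.36. The methods also name a normalization to untreated arrays, which these values do not carry. Raw intensities were not used, which leaves the signal over background unknown, and the number of arrays limits the precision.

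Gene symbols came from the platform annotation: of 54675 probe sets, 41097 name 1 gene, 1801 name several and 11777 name no gene. Entrez identifiers matched 41043 of them to the RefSeq gene table, which changed 0 symbols. All 25 member probe sets kept their symbol. The 62 Affymetrix controls were left out. Samples were grouped by the clone, treatment and time in their labels. No columns were identical, and 0 columns were unmapped.

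limma 3.58.1 (R 4.3.3) fitted a mean for each of 16 groups to all 54613 probe sets, with an intensity trend and 32 residual degrees of freedom. Contrasts gave IGF-I minus SFM per clone and time, differences of these responses between isoforms, clones and times, and SFM differences. p-values were adjusted by Benjamini-Hochberg over all probe sets. Differences between probe sets of a gene were fitted on within-array differences. The fit was tested on simulated data. Genes were named by a rule: all members and probe sets, each gene led by its probe set of highest mean, array values for those called in both clones of an isoform or with the largest change of their gene, up to 3 called genes per list and comparison, and the 5 genes most like SLC7A5 (mean log2 of at least 5). Members, lists and tests were chosen with earlier results of these data known.

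Alternatives were a filter on dim probe sets (3 or more arrays with a log2 of 5 or higher), quantile normalization, median centring, no intensity trend, only the arrays of a comparison, a 2-fold or no fold threshold, Bonferroni, the methods' t-test, the replicate letter as a block, each replicate left out, and a gene's mean over its probe sets. Promoter windows are from RefSeq (GRCh38.p14). The platform names no genome build, so no probe positions are given. Figures were drawn with matplotlib 3.10.9 (Python 3.11.15, pandas 2.3.3, numpy 2.4.6).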

Additional observations from a re-analysis of the deposited data

Results flagged for a closer look

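Responses differed between groups by a test of the difference itself in 9 cases, and 8 of them belong to SLC7A11. These 8 count the 3 probe sets of a single gene over several comparisons that partly share arrays, so they are not separate results. Of all probe sets, 0.0586% were called between isoforms and 0.134% between the IRS-1 clones at 24 h. Between times, 0.203% were called in IRS-1 and 0.146% in IRS-2. Between isoforms at 24 h, IRS-1 minus IRS-2, the SLC7A11 response differed by 0.67 for 207528_s_at, 1.89 for 209921_at and 1.65 for 217678_at (adjusted p 7.90e-08, 9.11e-19 and 2.95e-16, limma). Within IRS-1 at 24 h, #10 minus #20, it differed by -1.16 for 209921_at and -0.80 for 217678_at. Both IRS-1 clones nevertheless had their IGF-I arrays above all SFM arrays, as was so for 12% of all probe sets in each at 24 h.

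The response at 24 h minus that at 4 h differed in IRS-1 by 0.85 for SLC7A5, 1.57 for SLC7A11 209921_at and 1.29 for SLC7A11 217678_at. In IRS-2 it differed by -0.68 for SLC7A11 209921_at, so this probe set moved in opposite directions with time in the 2 isoforms. The IRS-2 value was -0.45 and not called without replicate A. No group held more than 3 arrays, so single arrays were not screened for distance from their group.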

How the results depend on the processing

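The 31 calls of member probe sets over 23 comparisons kept their direction under every alternative run. All 31 held with the dim filter, median centring, no intensity trend, only the arrays of a comparison and the replicate block, and all 19 simple comparisons held with the methods' t-test unadjusted. After Benjamini-Hochberg that t-test lost 8 of 19, and 0 probe sets were called at 4 h in IRS-1 #20, IRS-2 #1 and IRS-2 #6. Bonferroni left 1 difference between clones, and quantile normalization 0 baseline differences between isoforms. A 2-fold threshold lost 21 of 31: it left 0 at 4 h in IRS-1 #20 and IRS-2 #1, 1 in IRS-2 #6, 2 in each IRS-1 clone at 24 h, 2 differences between isoforms, 1 between clones, 2 between times, and 0 for both baselines and for SFM over time. Without a fold threshold the counts at 4 h were 4, 6, 4 and 5 (IRS-1 #10 and #20, IRS-2 #1 and #6), at 24 h 18, 15, 6 and 1, and 12 between isoforms (over 2 comparisons, with 0.26% and 0.476% of all probe sets), 4 between clones (over 4, with 0.00183% to 1.05%), 21 between times (over 2, with 5.99% and 2.78%), 20 at baseline between isoforms (62.6%), 25 at baseline between clones (over 2, with 31.8% and 19.3%) and 29 in SFM over time (over 4, with 1.83% to 20.8%).

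Leaving out 1 replicate gave 0 to 1 at 4 h in IRS-1 #10, 1 to 2 in IRS-2 #1 and 2 to 3 in IRS-2 #6, 6 to 7 and 6 to 8 at 24 h in IRS-1 #10 and #20, 3 to 4 between isoforms, 1 to 3 between clones, 3 to 5 between times, 2 to 3 between clones at baseline and 1 to 2 in SFM over time. Further probe sets gained a call: without replicate B, SLC1A4 212810_s_at in IRS-1 #10 at 24 h (0.62) and SLC7A11 207528_s_at between times in IRS-1 (0.61); without replicate C, SLC7A1 206566_at in IRS-1 #20 at 24 h (0.61), SLC7A1 212295_s_at between isoforms at 24 h (0.59) and SLC7A11 209921_at between the IRS-1 clones in SFM (0.63); and with median centring, SLC3A2 between the IRS-1 clones at 24 h (-0.60). With the mean of its probe sets SLC7A11 was called at 1.18 in IRS-1 #10 at 24 h, 1.99 in IRS-1 #20 at 24 h and 0.74 in IRS-2 #6 at 4 h, but not at 0.58 in IRS-1 #20 or 0.49 in IRS-2 #1 at 4 h. The causes were not tested. The sources do not state that the replicate letters pair arrays. Within a clone and time, 3 of 24 correlations between deviations of same-letter IGF-I and SFM arrays were over 0.1. The 24 ran from -0.44 to 0.30, and 4 of 24 arrays correlated best with their own letter. Such correlations cannot show whether a letter is shared across times or clones. With the replicate block the counts at 24 h were again 6 and 6 in the IRS-1 clones.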

Other observations

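Without IGF-I, genes outside the 10 members also differed between isoforms. Of the other amino acid transporters, SLC1A1, a glutamate carrier, and SLC1A6 were the 2 called of 38, both lower in IRS-1 clones, with differences of -1.42 for SLC1A1 and -0.62 for SLC1A6. Of the 30 amino acid response genes, 4 were called lower in IRS-1 clones than in IRS-2 clones: PSPH (-0.66) and PHGDH (-0.62), both enzymes of serine synthesis, STC2 (-0.61) and ATF5 (-0.59). The list medians were -0.04 and -0.30, beside -0.01 over all probe sets, of which 6.37% were called.

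Antisense transcripts of 2 members have probe sets of their own. SLC7A11-AS1 (1562253_at) changed with IGF-I by between -0.08 and 0.15 on the log2 scale over the 8 comparisons, and the SLC38A2-AS1 probe sets 1559924_at and 1559925_s_at by between -0.14 and 0.11. None passed the adjusted p.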
